A study of Arabidopsis thaliana with 6 samples.

Results

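The most abundant transcripts of WT seedlings were taken as the 300 probe sets with the highest mean signal over the 3 WT arrays, out of 22746 probe sets tested. Control probe sets and a block of 126 probe sets that lies at the start of the array's numbering and holds chloroplast and mitochondrial genes had been left out of the choice. The WT signals therefore chose the members, and high signals in WT are a description of the choice and not a result. What was asked of the data was which functions these transcripts have and how stable they were in *gis5*.

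Expression had been measured on Affymetrix ATH1 arrays in 10-d-old whole seedlings, leaves and roots together, of 2 genotypes. One was WT Columbia, and the other was *gis5* in the same background, a line with a point mutation in *POLD1* (the catalytic subunit of DNA polymerase δ), which came from a chemical mutagenesis and had been backcrossed to WT 4 times. Seedlings of both genotypes grew under continuous light, at 24°C in the methods and at 23°C in the description of the deposited series. There were 3 biological replicates of each genotype, with 1 array for each, and nothing states whether they were grown at different times, so that p-values measure the spread between these arrays.

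Green seedlings devote much of their messenger RNA to a small number of genes. Nuclear genes for the antenna, the photosystems, the Calvin cycle and photorespiration supply proteins that are imported into the chloroplast or the peroxisome, and ribosomal protein genes supply the subunits of the cytosolic and plastid ribosomes. Other abundant transcripts of plants encode aquaporins, metallothioneins, small cell wall proteins and proteins of stress and defence.

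The signal of a probe set is a linear intensity, on arrays that had each been scaled to a trimmed mean of about 500. It depends on the probes as well as on the transcript, so that signals of different probe sets do not rank genes by their number of transcripts. In RNA of whole seedlings, fewer cells of a type and less RNA per cell cannot be told apart. Ratios are differences of mean log2(signal + 16) between *gis5* and WT, and p-values come from limma over all 22746 probe sets.

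Median signals over all probe sets lay between 185 and 191 on the *gis5* arrays and between 174 and 182 on the WT arrays. The actin control, whose 3′ to 5′ ratio serves as a measure of RNA integrity, had ratios between 4.39 and 4.99 in *gis5* and from 3.30 to 6.42 in WT. For the GAPDH control they were 0.90 to 1.18 in *gis5* and 0.79 to 1.17 in WT. For ubiquitin they were 1.37 to 1.76 and 1.20 to 1.54. The first WT array had the lowest ratio in each control. Of the marker genes of green tissue only *RCA*, itself a member, could be matched to a probe set by name, 1 of 11. Of the root markers 5 of 14 were matched, and their summed signal was between 22165 and 25557 in *gis5* and between 17556 and 24552 in WT. Most of that sum was *PYK10*, itself a member, at 19247 to 22775 in *gis5* and 14994 to 22159 in WT. Of the other root markers, *TIP2;3* was higher on every *gis5* array, at 871 to 1210 against 574 to 807 in WT. The arrays overlapped in *EXPA7*, *PRP3* and *CASP1*. The summed signal of 5 of 7 flower markers was between 1100 and 1562 in *gis5* and between 176 and 239 in WT, and that of 4 of 10 seed storage markers between 174 and 1451 in *gis5* and between 208 and 212 in WT. None of the flower and seed markers was a member, and their part in the results below was not tested.

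Names could be given to 103 of the 300 members, 183 had no gene name in the annotation used, and 14 matched several genes. Of the 103 names, 94 came from the platform annotation and 9 only from the study's own list of probe sets, which is ordered by the difference between the genotypes. These 9, *PSAD-2*, *FAD2*, *PIP1B*, *FSD1*, *AT2G33830*, *GASA4*, *CCH*, *DIN10* and *PIP2E*, were thus more likely to have a name because they differed, and their ratios had a median of −0.53. The 94 others had a median of −0.13 and the 183 unnamed members one of −0.16. The group counts below cover the named members, so that they do not describe the make-up of the whole list.

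At the edge of the list, *PIP2E*, *AT5G44020* and *CaS* had the last ranks inside it, with mean WT signals of 8504, 8490 and 8487. The first outside it were an unnamed probe set at 8475, *AT5G02870* at 8452 and another unnamed one at 8448. Signals on both sides of the limit were thus almost the same.

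By function, 22 of the named members encoded proteins of the cytosolic ribosome. Light reactions of photosynthesis had 16, and carbon fixation with photorespiration had 6. Another 8 encoded other chloroplast proteins and 6 the plastid ribosome, which makes 36 members for the chloroplast and its partner pathway in the peroxisome. Metabolism and protein turnover had 12, and a mixed group of stress, metal and cell surface proteins had 25. The remaining 8 were given no role.

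In *gis5* most members were slightly dimmer and few differed by much. The log2 ratio was negative in 242 of the 300, where 46.4% of all probe sets had a negative ratio. The median ratio was −0.15 and the middle 50% of members lay between −0.26 and −0.02, while the median over all probe sets was 0.03. No member had an adjusted p under 0.05 with limma, where 0.0044% of all probe sets were called higher and 0% lower. At an unadjusted p under 0.05, 2 members were higher (5.99% of all probe sets) and 23 were lower (3.06%). Quantile normalization, which by its construction gives every array the same distribution of signals, left 6 higher (4.68%) and 7 lower (4.07%) and 172 negative ratios (51.3%). Centring each array on its median gave 1 higher (4.26%) and 49 lower (4.98%), with 262 negative (55.9%). The direction of the members' median was the same in all of these scalings, at −0.04 after quantile normalization and −0.22 after centring. The median over all probe sets was then also negative, at −0.009 and −0.044, so that after quantile normalization the members stood close to it.

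**Figure D1:**
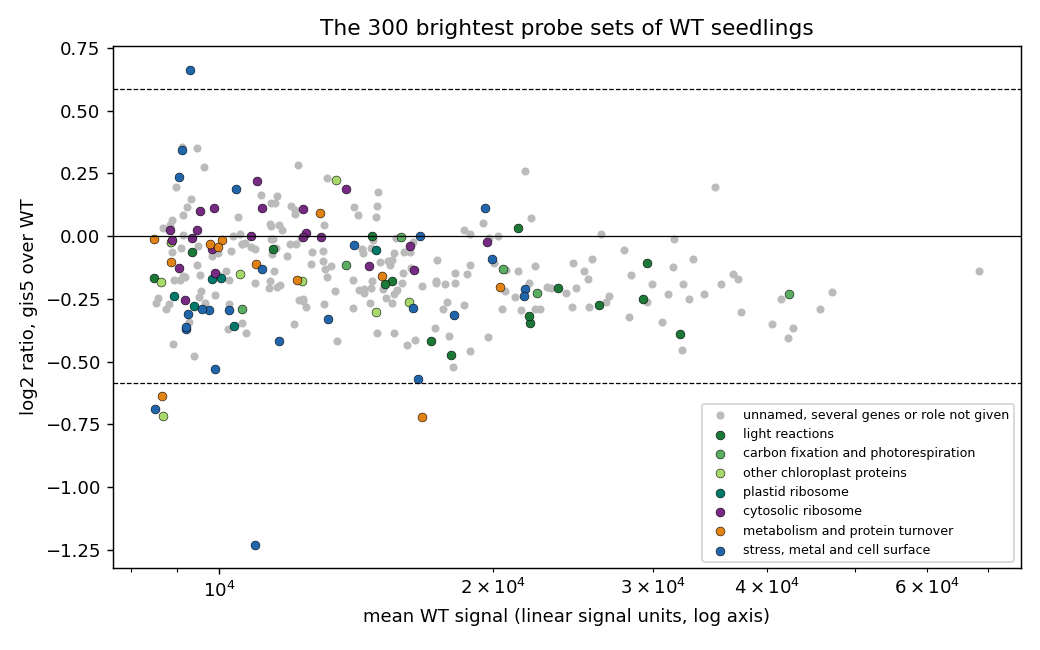
Mean signal over the 3 WT arrays (log axis) against the log2 ratio of *gis5* over WT for each of the 300 members, coloured by function for the named ones and grey for the others. Dashed lines mark a 1.5-fold difference. Most points lie just under 0, with 1 member above the upper line and 5 below the lower line.

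The size of the differences was small. At 1.5-fold or more, 1 member was higher (7.54% of all probe sets) and 5 were lower (3.9%). At 2-fold, 0 were higher (1.65%) and 1 was lower (0.664%). A p that misses a threshold does not show stability, so the 95% interval of each ratio was also read: it lay within 1.5-fold of no difference in both directions for 183 members, against 28% of all probe sets. Of the 300 probe sets next in signal, 190 had such an interval, so this was not particular to the members. The 28% given beside the groups below covers dim and bright probe sets alike. Replicates of the members had a median SD of 0.11 in WT and 0.12 in *gis5* on the log2 scale, against 0.25 and 0.22 over all probe sets and 0.13 in both genotypes for the 300 probe sets next in signal.

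The shared variance of limma is set over dim and bright probe sets alike, and dim ones vary more. When the variance was allowed to depend on the signal, with a robust fit, 1 member was higher (0.492% of all probe sets) and 5 were lower (0.145%) at an adjusted p under 0.05. These were *MT1C* on the higher side and *FAD2*, *AT2G05540*, *AT5G19940*, *PIP2E* and 1 unnamed probe set on the lower side. In that fit the 95% interval lay within 1.5-fold for 260 members (35.2%), and 7 members were higher (6.75%) and 89 were lower (4.15%) at an unadjusted p under 0.05. When the dimmer probe sets were left out and the brighter 11373 were fitted alone, 0 members were higher (0.624%) and 4 were lower (0.229%) at an adjusted p under 0.05, the same 4 named genes. At an unadjusted p under 0.05 this fit had 4 higher (7.85%) and 38 lower (5.42%), and 219 members had an interval within 1.5-fold (66.4%).

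Negative ratios were most frequent among the brightest members. The WT signals that set this order also enter the ratios, so a part of the trend can come with the ordering itself. Among the 100 highest in WT the ratio was negative in 90 members with a median of −0.21, among the next 100 in 77 with a median of −0.10, and among the last 100 in 75 with a median of −0.11. After quantile normalization these medians were −0.06, 0.004 and −0.07. The sign for the middle 100 thus depended on the scaling, and the lowest median was then that of the last 100. The 300 probe sets that follow in the order had a median of −0.04, with 185 negative ratios, and 190 of them had an interval within 1.5-fold.

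On all 3 *gis5* arrays the members stood slightly below WT. The median member stood at 91.5%, 89.5% and 91.0% of its WT mean on the *gis5* arrays and at 101.7%, 99.4% and 99.1% on the WT arrays. The arrays of the genotypes did not overlap. In 110 members every *gis5* array was below every WT array (6.79% of all probe sets), and in 10 members every *gis5* array was above (9.13%).

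Together the members held 28.7%, 28.3% and 28.6% of the summed signal on the WT arrays and 26.8%, 26.4% and 26.3% on the *gis5* arrays. The means were 28.5% ± 0.199 (SD, n = 3) and 26.5% ± 0.248 (SD, n = 3), and the difference of −2.05 percentage points had a p of 0.1 in a two-sided exact permutation test, the smallest p that 3 arrays against 3 allow. Because the WT arrays both chose the members and entered the difference, a part of such a decrease can come with the choice itself. The permutations kept the list that the WT arrays had chosen, so no conclusion is drawn from this p. When the 300 highest probe sets were instead chosen by the *gis5* mean, the difference was −1.53 percentage points and the median ratio −0.11. When members were chosen on 1 WT array and compared with the other WT arrays, a setting added after the data had been seen, the median ratio was −0.139, −0.134 and −0.140.

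The order of the bright probe sets was largely kept. Of the 300 members, 272 were also among the 300 highest of *gis5*, and the 28 others stayed within the 587 highest. Of the 100 highest, 87 were shared, and of the 1000 highest, 933. Single arrays shared 271 to 273 of their 300 highest within WT, 273 to 276 within *gis5* and 262 to 276 between the genotypes. The lowest overlaps were between genotypes, and the range between genotypes took in those between replicates.

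**Figure D2:**
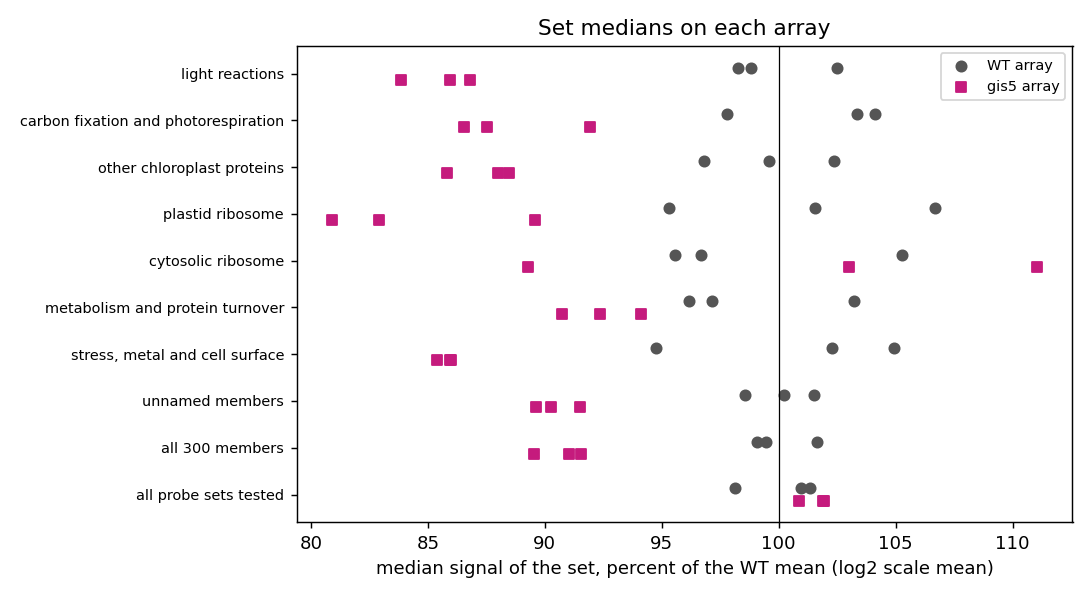
Median signal of each set of members on each array, as percent of the WT mean taken on the log2 scale; circles are WT arrays and squares *gis5* arrays, 3 of each. The *gis5* squares lie to the left of all WT circles in every set of members except the cytosolic ribosome, and for all probe sets tested they lie among the WT circles or just above them.

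Proteins of the light reactions were encoded by 16 members. Of these, 14 had a negative ratio, with a median of −0.20 (−0.27 after centring and −0.08 after quantile normalization). At an unadjusted p under 0.05, 3 were lower (3.06% of all probe sets) and 0 higher (5.99%), none was called after adjustment, and 9 had an interval within 1.5-fold (28%). After quantile normalization 0 were lower, so that the calls of *LHCB4.1*, *PSAD-2* and *AT1G51400* were all lost, at ratios of −0.20, −0.35 and −0.30. In 8 of the 16 every *gis5* array was below every WT array (6.79% of all probe sets).

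The antenna of photosystem II was represented by *LHCB4.1* and *LHCB4.2*, which encode the minor antenna protein CP29. The signal of *LHCB4.1* was 23519, 25937 and 23849 in *gis5* against 32693, 28582 and 34982 in WT. All *gis5* arrays were below all WT arrays, and the log2 ratio was −0.39 with an SE of 0.15 (limma, unadjusted p = 0.0396, adjusted p = 0.521). For *LHCB4.2* the signal was 18390, 17462 and 16019 in *gis5* against 20908, 21507 and 23509 in WT, again without overlap, a ratio of −0.35 (SE 0.15, unadjusted p = 0.0513). These paralogs share much of their sequence and can cross-hybridize.

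Photosystem I was represented by 3 nuclear subunits, which line its stromal and lumenal sides. *PSAD-2*, a subunit of the ferredoxin docking site, had signals of 13779, 13438 and 11599 in *gis5* and 17924, 16013 and 19995 in WT. Its ratio of −0.47 (SE 0.16, limma, unadjusted p = 0.024, adjusted p = 0.468) was the lowest of the group, and its name came from the study's list. *PSAE-1*, another stromal subunit, had a ratio of −0.25 and *PSAN*, a subunit on the lumenal side, one of −0.32. In all 3 genes the arrays of the genotypes did not overlap.

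Ratios of the photosystem II subunits described here ran from −0.42 to 0.00, the upper end set by the chloroplast gene *psbK*. *AT1G51400*, a small protein of photosystem II, had signals of 13539, 13916 and 11030 in *gis5* and 16766, 15373 and 19169 in WT, a ratio of −0.42 (SE 0.17, limma, unadjusted p = 0.0475). For *PSBY*, another small subunit, the ratio was −0.28, with arrays that overlapped. *psbK*, a chloroplast gene that the numbering of the array had not placed in the block left out and that is named here after its values were seen, had signals of 16345, 14351 and 12748 in *gis5* and 10568, 16791 and 16799 in WT. The first WT array was far below the other two, and the ratio of 0.00 carried an SE of 0.23. Without the first WT array the ratio of *psbK* was −0.22.

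Of the other complexes, *ATPC1*, the γ subunit of the chloroplast ATP synthase, stood at −0.21 without overlap of the arrays. A small subunit of the cytochrome b6f complex, *AT2G26500*, had a ratio of −0.11 with overlapping arrays. The thylakoid curvature protein *AT4G01150* had a ratio of 0.03, which turned to −0.04 after centring of the arrays.

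Beyond the members, the lists drawn up by symbol, in which names from the study's list also count, held 21 named probe sets for photosystems and electron transport, members or not, of which 2 were higher and 5 were lower at an unadjusted p under 0.05, with a median ratio of −0.28. The light harvesting list held 5, with 1 higher and 1 lower, and its median ratio of 0.39 was opposite in sign to the ratios of both *LHCB4* members. Over all probe sets 5.99% were higher and 3.06% lower. Of the photosystem list 7 were members, and of the light harvesting list 2.

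Carbon fixation and photorespiration had 6 members, all with a negative ratio (median −0.18). Of these, 4 had an interval within 1.5-fold (28% of all probe sets) and 0 had an unadjusted p under 0.05. *RCA*, Rubisco activase, which frees the active site of Rubisco from bound sugar phosphates, was the brightest named member and kept rank 5 in both genotypes. Its signal was 38346, 35313 and 34517 in *gis5* against 43821, 39850 and 43070 in WT, a ratio of −0.23 (SE 0.14, 95% interval −0.57 to 0.11, limma, unadjusted p = 0.153). The *gis5* arrays were all below the WT arrays, by less than the interval could separate from 0.

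The Calvin cycle enzymes downstream of Rubisco differed little. *PRK*, phosphoribulokinase, which regenerates the acceptor of CO2, had a ratio of −0.13 (SE 0.16). *SBPASE*, sedoheptulose-bisphosphatase, had signals of 16827, 14562 and 16172 in *gis5* and 15820, 16218 and 15563 in WT. Its arrays were interleaved, and the ratio of −0.004 had a 95% interval from −0.34 to 0.34. In the peroxisome, *HPR*, hydroxypyruvate reductase of photorespiration, had a ratio of −0.22 with no overlap of the arrays.

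The other chloroplast proteins had a median ratio of −0.18, with 7 of 8 negative and 1 lower (3.06% of all probe sets) at an unadjusted p under 0.05. *AT5G19940*, a plastid lipid-associated protein, had signals of 4922, 5771 and 5080 in *gis5* and 9348, 7588 and 9091 in WT. Every *gis5* array was below every WT array, at 60.8% of the WT level, with a log2 ratio of −0.72 (SE 0.16, limma, unadjusted p = 0.00326, adjusted p = 0.261). With the variance allowed to follow the signal, the adjusted p was 0.00881. It moved from rank 293 in WT to rank 527 in *gis5*.

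Smaller differences were seen in the antioxidant and pigment genes. *AT3G11630*, a 2-Cys peroxiredoxin, had a ratio of −0.26, the m-type thioredoxin *ATHM2* one of −0.18, and *AT1G74470*, the geranylgeranyl reductase of chlorophyll and tocopherol synthesis, one of −0.30. In these 3 the arrays did not overlap, although none had an unadjusted p under 0.05. The iron superoxide dismutase *FSD1* was the only member of the group with a positive ratio, 0.22, with signals of 16904, 13633 and 16756 in *gis5* and 13058, 13600 and 13646 in WT, where the second *gis5* array lay among the WT arrays.

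Ribosomal protein genes of the plastid and of the cytosol had different median ratios. The 6 plastid ones all had negative ratios, with a median of −0.20 (−0.27 after centring and −0.15 after quantile normalization). Of these, 0 had an unadjusted p under 0.05 and 3 had an interval within 1.5-fold (28% of all probe sets). *AT3G13120*, protein S10, had signals of 7961, 7519 and 8763 in *gis5* and 11478, 9277 and 10391 in WT, without overlap, and a ratio of −0.36 (SE 0.16, limma, unadjusted p = 0.0592). Proteins L17 (*AT3G54210*) and L34 (*AT1G29070*) both had a ratio of −0.17, and L3 (*AT2G43030*) had one of −0.06.

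The 22 cytosolic ones had ratios on both sides of 0. Their median ratio was −0.003, turned to 0.09 by quantile normalization and to −0.07 by centring, so that it had no settled direction. Ratios ran from −0.25 to 0.22, 13 were negative, 0 had an unadjusted p under 0.05, and 20 had an interval within 1.5-fold (28% of all probe sets), all 22 when the variance followed the signal. On the arrays the group stood at 111.0%, 89.3% and 103.0% of the WT mean in *gis5* and at 105.3%, 96.7% and 95.5% in WT, so that the first *gis5* array was the highest and the second the lowest.

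Single cytosolic ribosomal proteins showed the same spread. *AT5G20290*, protein S8, was the brightest of them, with signals of 18839, 18350 and 20800 in *gis5* and 19515, 21476 and 18055 in WT and a ratio of −0.02. L26 (*AT3G49910*) had a ratio of −0.13, S9 (*AT5G15200*) one of −0.04 and the stalk protein P0 (*AT3G09200*) one of −0.12. On the positive side were L28 (*AT2G19730*) at 0.22, L37a (*AT3G60245*) at 0.19, L7a (*AT3G62870*) and L37 (*AT1G52300*) both at 0.11. Only L37a had all *gis5* arrays above all WT arrays. *AT5G35530*, protein S3, was among the named members with the widest spread in *gis5*, at 11936, 8325 and 8932 against 9314, 8969 and 10097 in WT. The difference between the plastid and cytosolic groups is given as these values and was not tested.

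**Figure D3:**
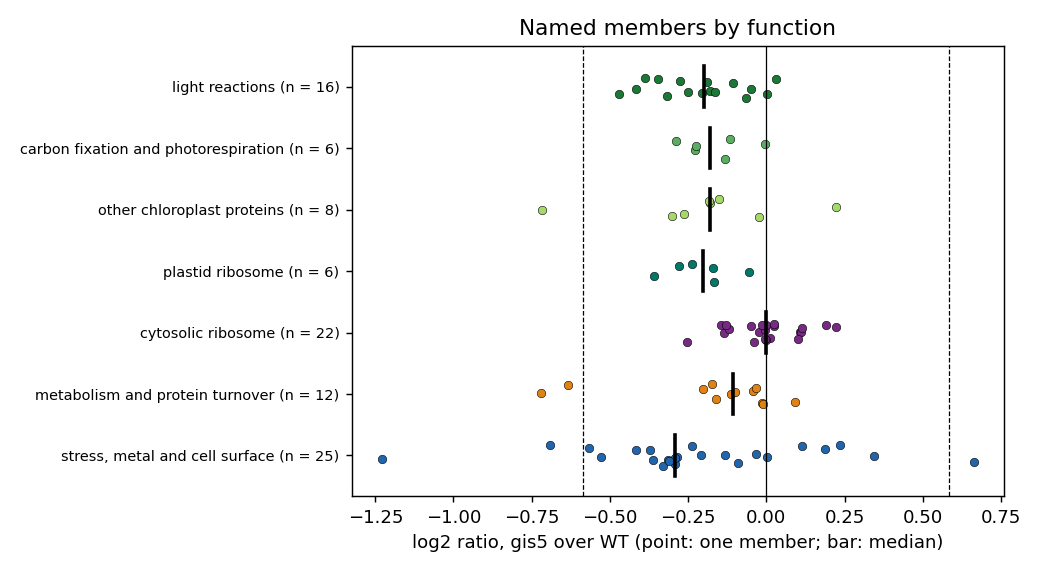
Log2 ratio of *gis5* over WT of each named member with a role, grouped by function; points are single members, bars the group medians and dashed lines a 1.5-fold difference. The cytosolic ribosome group is centred on 0, and the medians of the other 6 groups lie between −0.11 and −0.29.

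Metabolism and protein turnover had 12 members with a median ratio of −0.11, of which 11 were negative. At an unadjusted p under 0.05, 1 was lower (3.06% of all probe sets), and 8 had an interval within 1.5-fold (28%). The lower one was *FAD2*, which was named only from the study's list, as was *DIN10*. *FAD2*, the oleate desaturase of the endoplasmic reticulum that makes linoleate for membrane lipids, had signals of 10335, 11185 and 8999 in *gis5* and 17077, 15385 and 17715 in WT. The *gis5* arrays were all far below the WT arrays, at 60.7% of the WT level, with a log2 ratio of −0.72 (SE 0.16, limma, unadjusted p = 0.00292, adjusted p = 0.253) and an adjusted p of 0.00494 with the variance following the signal. Its rank was 95 in WT and 221 in *gis5*.

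*DIN10*, a member of the raffinose synthase family that is known to be induced in the dark, had signals of 5182, 8072 and 4073 in *gis5* and 8970, 7655 and 9329 in WT. The second *gis5* array lay above the lowest WT array, and the ratio of −0.64 had an SE of 0.27 (limma, unadjusted p = 0.0509). The enzymes of central carbon metabolism differed less: *GAPC2*, the cytosolic glyceraldehyde-3-phosphate dehydrogenase of glycolysis, had a ratio of −0.20, and *cICDH*, the cytosolic isocitrate dehydrogenase, one of 0.09. *UBC28*, a ubiquitin-conjugating enzyme, had signals of 15561, 14401 and 10977 in *gis5* and 15228, 14695 and 15342 in WT, where the third *gis5* array was well below the others, and a ratio of −0.16.

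The mixed group of stress, metal and cell surface proteins had the widest range of ratios. Its 25 members had a median ratio of −0.29 (−0.36 after centring and −0.20 after quantile normalization), and only 5 had an interval within 1.5-fold (28% of all probe sets). At an unadjusted p under 0.05, 2 were higher (5.99% of all probe sets) and 6 were lower (3.06%), and ratios ran from −1.23 to 0.66. Among these calls were *PIP1B*, *PIP2E*, *AT2G33830*, *GASA4* and *CCH*, named only from the study's list, which is ordered by difference. The counts and the median of this group are therefore partly set by the naming, and no conclusion is drawn from them.

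Metal-binding proteins were the 2 members higher at an unadjusted p under 0.05 without further scaling, while other settings called other numbers of members. *MT1C*, a metallothionein, one of the small cysteine-rich proteins that bind copper and zinc, had signals of 12623, 15333 and 16552 in *gis5* and 9441, 9396 and 9070 in WT. All *gis5* arrays were above all WT arrays, at 158% of the WT level, with a ratio of 0.66 (SE 0.16, limma, unadjusted p = 0.00492, adjusted p = 0.3) and an adjusted p of 0.0116 with the variance following the signal. *CCH*, a copper chaperone, had signals of 11852, 11671 and 11197 in *gis5* and 9556, 9018 and 8766 in WT, also without overlap, and a ratio of 0.34 (SE 0.14, limma, unadjusted p = 0.0422), a call that was lost after centring, at 0.28. The list of metallothioneins and redox proteins drawn up by symbol held 45 named probe sets, members or not, of which 16 were higher (5.99% of all probe sets) and 0 lower (3.06%) at an unadjusted p under 0.05, with a median ratio of 0.23. Names that come only from the study's list, which is ordered by difference, count among these 45. Only 4 of the 45 were members (*ATHM2*, *FSD1*, *MT1C* and *PRXR1*).

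Both plasma membrane aquaporins among the named members, which let water cross the membrane, were lower. *PIP2E* had signals of 4929, 5753 and 5115 in *gis5* and 8703, 7842 and 8967 in WT, at 62.0% of the WT level, with a ratio of −0.69 (SE 0.15, limma, unadjusted p = 0.00275, adjusted p = 0.248) and an adjusted p of 0.00828 with the variance following the signal. *PIP1B* had signals of 10416, 11556 and 11075 in *gis5* and 17507, 13130 and 18934 in WT, a ratio of −0.57 (SE 0.19, limma, unadjusted p = 0.019). In neither gene did the arrays overlap, and both names came from the study's list. Over the 8 named aquaporin probe sets, members or not, 1 was higher (5.99% of all probe sets) and these 2 were lower (3.06%) at an unadjusted p under 0.05. The median ratio of the 8 was 0.12, opposite in sign to both members.

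Among cell wall and secreted proteins, *AT2G05540*, a glycine-rich protein, had the largest difference of all 300 members. Its signals were 4486, 6942 and 3229 in *gis5* and 10453, 10351 and 12046 in WT, with no overlap although the *gis5* arrays differed widely. The ratio was −1.23 (SE 0.28, 42.7% of the WT level, limma, unadjusted p = 0.00385, adjusted p = 0.275), with an adjusted p of 0.00644 when the variance followed the signal, and the rank went from 209 to 587. *AT5G62350*, of the invertase and pectin methylesterase inhibitor family, had a ratio of −0.42 and *GASA4*, a gibberellin-regulated peptide, one of −0.37, both with an unadjusted p under 0.05 in limma and no overlap. Quantile normalization ended both calls, at −0.35 and −0.31. The bright cell surface members moved less: *ECS1*, a cell wall protein, had a ratio of −0.21 with *gis5* signals spread from 14883 to 22944, *AT1G78040*, of the Ole e 1 family, one of −0.24, and *AT2G45180*, of the lipid transfer protein family, one of −0.09.

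**Figure D4:**
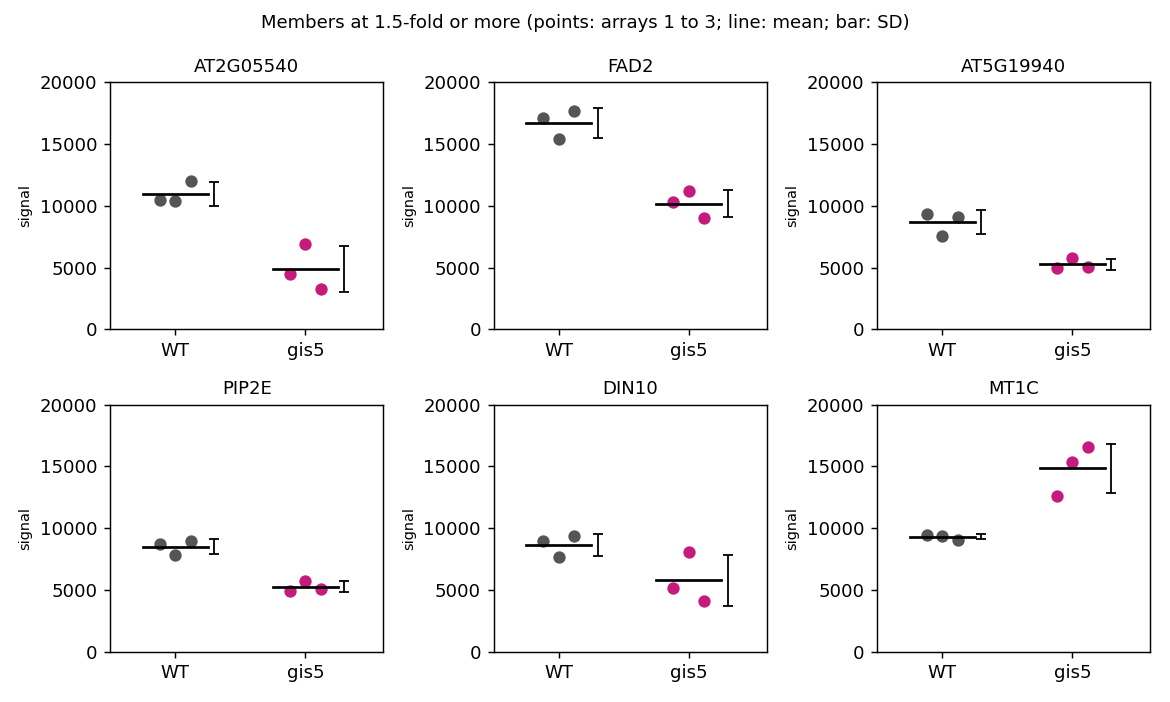
Signal (linear units) of the 6 members at 1.5-fold or more on each array; points are arrays 1 to 3 of each genotype, the line is the mean and the bar the SD (n = 3). *MT1C* is higher in *gis5* and the other 5 are lower, and only in *DIN10* do the arrays overlap.

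Stress and defence proteins made up the rest of the group. *DI19*, a drought-induced zinc finger protein, had signals of 15631, 15915 and 12355 in *gis5* and 18321, 16030 and 20082 in WT, and a ratio of −0.31. *AT2G33830*, of the dormancy and auxin associated family, had a ratio of −0.53 (limma, unadjusted p = 0.0451; past 0.05 after quantile normalization, at −0.47), with a first WT array of 12629 well above the other two at 8440 and 8595. *PYK10*, the β-glucosidase of the endoplasmic reticulum bodies of roots, had signals of 22775, 19247 and 20819 in *gis5* and 14994, 21697 and 22159 in WT, with a low first WT array, and a ratio of 0.11. Positive ratios were also found for *AT1G54410*, a dehydrin, at 0.19, and for *AT4G23670*, of the major latex protein family, at 0.23, the latter with all *gis5* arrays above all WT arrays.

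The members without a role in the grouping had ratios from −0.44 to 0.12. *CP5* had signals of 11699, 14471 and 9883 in *gis5* and 17843, 14901 and 15586 in WT, a ratio of −0.44 with no overlap. *CCL* had a ratio of −0.39 (limma, unadjusted p = 0.0494), a call lost after quantile normalization at −0.30. *AT4G15545* had one of −0.27 and *AT3G48140* one of 0.11. *AT1G13930* was among the most even of all, with signals of 16509, 14935 and 15355 in *gis5* and 15565, 15383 and 16029 in WT and a ratio of −0.01.

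The 183 unnamed members included the 4 highest ranks of the list. Their ratios had a median of −0.16, ran from −0.52 to 0.28 and were negative in 154. At an unadjusted p under 0.05, 0 were higher (5.99% of all probe sets) and 11 were lower (3.06%), 117 had an interval within 1.5-fold (28%), and none reached 1.5-fold. Members that differed more were more likely to be named from the study's list, as *FAD2*, *DIN10* and *PIP2E* were. The narrow range of the unnamed members is therefore partly set by the naming. The 14 members that match several genes had a median of 0.02, which turned to −0.04 after centring.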

How the data were processed

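The authors deposited a table of linear intensities with 1 value for each probe set on each array. MAS5 is named for it in the labels, with no version. Each array's mean after trimming 2% at either end is about 500, so the authors had scaled the arrays to that value. A genome build was not given in the sources used here, so coordinates are left out, and the raw array files, detection calls and fold changes of the study were not used. Precision is limited by the number of arrays, and saturation of the brightest signals was not tested.

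Intensities were taken as log2(signal + 16) with no more scaling. Genotype was fitted with limma 3.58.1 (lmFit, eBayes) under R 4.3.3, and p-values were adjusted by Benjamini-Hochberg across all 22746 probe sets. Of 22810 probe sets, 64 controls were left out. The fit was also run on simulated data with independent noise for each probe set. That simulation held no differences in scaling between arrays, so it cannot bear on the choice of scaling. Summaries and figures were made with Python 3.11.15, pandas 2.3.3, numpy 2.4.6 and matplotlib 3.10.9. Genes were named by the platform annotation, with symbols updated from RefSeq (TAIR10.1), and 849 probe sets were named only by the study's own list. Of the members, 32 have identifiers of probe sets that match several transcripts (_s_at or _x_at). Roles are textbook knowledge and not part of the files.

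The members, the lists and the tests were chosen with earlier results of these data known, and the grouping by role was written after the values had been seen. Named are the 20 members with the highest WT mean, the 10 higher and 10 lower with the smallest p, the 5 with the widest spread over the *gis5* arrays, up to 4 of each group and those at the limit of the list. *psbK*, *PRXR1* and any other outside this rule were named after their values were seen. Marker symbols shared by several loci were matched by the locus meant. Alternatives were quantile normalization, centring on array medians, a replicate block, leaving out each array, a filter on dim probe sets, another variance model, pseudocounts of 1 and 64, and other choices and sizes of the list.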

Additional observations from a re-analysis of the deposited data

How the results depend on the processing

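The members' main counts with limma were 0 at an adjusted p under 0.05, 2 higher and 23 lower at an unadjusted p under 0.05, 6 at 1.5-fold or more and 183 with an interval within 1.5-fold. The count at an adjusted p became 4 with dim probe sets left out and 6 with the variance following the signal. The count of higher members was 6 after quantile normalization, 1 after centring, 4 with dim probe sets left out, 7 with the variance following the signal, 4 with a pseudocount of 64, 4 for members chosen by the *gis5* mean and 0 for the 100 highest. The count of lower members was in turn 7, 49, 38, 89 and 42 in the first 5 of these settings. Members at 1.5-fold or more were 3 when chosen by the mean of all arrays and 1 among the 100 highest. The median ratio of −0.15 became −0.035, −0.22, −0.11, −0.13, −0.21 and −0.074 with quantile normalization, centring, choice by the *gis5* mean, choice by all arrays, the 100 and the 1000 highest. The difference in summed signal of −2.05 percentage points became −1.53 and −1.70 with the choice by the *gis5* mean and by all arrays. The causes of these changes were not tested, except that shorter lists hold fewer members.

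With any one array left out, 1 to 2 members were higher and 9 to 15 lower at an unadjusted p under 0.05, 94 to 137 had an interval within 1.5-fold, and 4 to 9 reached 1.5-fold. The median stayed between −0.15 and −0.14, the overlap with the *gis5* list between 268 and 274, and the difference in summed signal between −2.20 and −1.97. Arrays with the same replicate number did not deviate together over all probe sets (correlations of −0.06, −0.00028 and −0.04). These correlations gave no sign of pairing but cannot exclude that such arrays shared growth or handling. A replicate block gave 1 higher and 6 lower at an unadjusted p under 0.05 and 92 with an interval within 1.5-fold. For the pseudocounts, the replicate block and the fits with an array left out, shares over all probe sets are not given. Counts in these settings therefore have no background beside them. Of 754 values of the 58 named genes under the alternatives, 30 changed sign, 0 of them at an unadjusted p under 0.05, 55 no longer had an unadjusted p under 0.05 and 33 came under it.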
